A study of Mus musculus with 3 samples.

Results

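The genes described here encode the enzymes that write, erase and act on histone and DNA modifications: histone deacetylases, histone acetyltransferases, Polycomb repressive complex 2 (PRC2), other histone lysine methyltransferases, arginine methyltransferases, histone demethylases, chromodomain (CHD) remodellers, DNA methyltransferases and TET dioxygenases. They were chosen by name, from a list of 49 genes in 9 classes, and all 49 were found among 21887 protein-coding genes of the annotation. Chromatin accessibility at these genes was measured by ATAC-seq, in which a transposase cuts and tags open DNA, in mouse oligodendrocyte progenitor cells from the series on the nucleoporin Seh1, its partner transcription factor Olig2 and the bromodomain protein Brd7. The 3 libraries were 1 each of wild type cells at the progenitor stage (the letters DO in the sample title were read as day 0), wild type cells on day 1 of differentiation, and Seh1cKO cells on day 1 of differentiation. All were C57BL/6 cells that were immunopanned, with anti-GalC and then anti-O4 plates, from forebrain cortices of pups on postnatal day 4-7 and grown with PDGF-AA, CNTF, bFGF and NT3. For differentiation, triiodothyronine (T3, the thyroid hormone that starts it in culture) was given at 60 nM and PDGF-AA, bFGF and NT3 were withdrawn. The promoter that drives recombination in the Seh1cKO animals, and how many animals were pooled, are not given in the sources used here. Each group is a single library, so differences carry no measure of replicate spread, and conditions were not tested against each other.

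Acetyl groups on histone tails go with open, active chromatin and are placed by acetyltransferases and removed by deacetylases, while methyl groups can mark active or silent genes according to the residue that carries them. In the oligodendrocyte lineage the class I deacetylases Hdac1 and Hdac2, the PRC2 enzyme Ezh2 and its partner Eed, the remodellers Chd7 and Chd8, the arginine methyltransferase Prmt5 and the DNA methyltransferase Dnmt1 are each known to be needed for progenitors to divide or differentiate properly. An open chromatin peak at such a gene shows an accessible site, not the amount of its RNA or enzyme.

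The peak tables held 108788 peaks from 23403600 fragments for control progenitors, 118441 from 18260883 for control day 1 and 46113 from 10845533 for the Seh1cKO library. Accessibility is given as pileup, the number of fragments over a peak's summit, per 1000000 fragments of the library (written as FPM). The lowest pileup called was 9, 8 and 6 fragments, and a site under that level is listed with no peak although it may be open. Intervals are exact at 95% for independent counts and cover counting error only. Duplicate fragments were kept and are not independent molecules, so the intervals may be too narrow by an unknown amount. Seh1l, which encodes Seh1, had a gene-end peak at 3.29, 3.83 and 4.33 FPM in control progenitors, control day 1 and Seh1cKO cells. The sources used here do not give the deleted stretch, so that peak checks nothing about the knockout. Of 6 oligodendrocyte lineage markers, 5 had a gene-end peak in each library (Olig1, Olig2, Sox10, Nkx2-2 and Pdgfra, from 1.01 to 8.76 FPM), and Cspg4 had none. Of 16 markers of astrocytes, neurons, microglia or macrophages and vascular cells, 6, 8 and 4 had one, all between 0.51 and 3.56 FPM. A peak within 1000 bp of a gene end was present for 62.4%, 63.2% and 56.2% of all genes. The highest of the 16, the microglial marker P2ry12, had 1.84, 3.56 and 1.84 FPM. In each library this was above Pdgfra, at 1.58, 1.37 and 1.48, and below Olig1 and Olig2.

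In some members with several annotated starts the outermost start had no peak and an inner one did. In others, such as Kat5 and Chd4, starts with different numbers of CpG lay close together under the same peak in all 3 libraries. The windows below span 300 bases around a start in the RefSeq annotation of GRCm38.p6, which has the coordinates of mm10, and are written 5′ to 3′ on the gene's strand with each CpG in capitals. They are shown because Kdm4c, Dnmt1 and Hdac9 had no peak at the outermost start and had one in all 3 libraries at an inner start, and because Ehmt1 and Tet2 had the largest day 1 and Seh1cKO differences among members whose interval left out the all-gene ratio. Kdm4c encodes a demethylase of trimethylated histone H3 lysine 9, Dnmt1 the methyltransferase that copies DNA methylation at replication, and Hdac9 a class IIa deacetylase. Ehmt1 encodes a lysine 9 methyltransferase and Tet2 an enzyme that oxidises 5-methylcytosine.
Kdm4c, outermost start, chr4:74242247-74242546, plus strand: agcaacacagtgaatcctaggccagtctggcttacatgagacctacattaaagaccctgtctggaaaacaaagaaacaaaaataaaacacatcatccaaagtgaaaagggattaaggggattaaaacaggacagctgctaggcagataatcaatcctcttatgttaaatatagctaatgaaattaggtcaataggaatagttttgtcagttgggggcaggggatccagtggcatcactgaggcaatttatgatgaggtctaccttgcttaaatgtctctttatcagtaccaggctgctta
Kdm4c, inner start, chr4:74251629-74251928, plus strand: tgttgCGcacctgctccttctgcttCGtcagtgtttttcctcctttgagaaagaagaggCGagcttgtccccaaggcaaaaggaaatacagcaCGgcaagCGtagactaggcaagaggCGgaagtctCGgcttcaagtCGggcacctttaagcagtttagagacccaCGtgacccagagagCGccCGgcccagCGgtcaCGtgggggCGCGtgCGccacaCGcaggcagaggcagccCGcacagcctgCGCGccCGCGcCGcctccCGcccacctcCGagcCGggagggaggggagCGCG
Dnmt1, outermost start, chr9:20959839-20960138, minus strand: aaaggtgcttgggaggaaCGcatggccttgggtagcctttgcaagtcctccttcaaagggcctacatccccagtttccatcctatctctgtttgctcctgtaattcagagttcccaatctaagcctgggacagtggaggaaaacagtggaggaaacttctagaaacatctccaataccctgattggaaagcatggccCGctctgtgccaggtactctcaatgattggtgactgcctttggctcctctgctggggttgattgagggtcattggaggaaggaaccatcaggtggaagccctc
Dnmt1, inner start, chr9:20952574-20952873, minus strand: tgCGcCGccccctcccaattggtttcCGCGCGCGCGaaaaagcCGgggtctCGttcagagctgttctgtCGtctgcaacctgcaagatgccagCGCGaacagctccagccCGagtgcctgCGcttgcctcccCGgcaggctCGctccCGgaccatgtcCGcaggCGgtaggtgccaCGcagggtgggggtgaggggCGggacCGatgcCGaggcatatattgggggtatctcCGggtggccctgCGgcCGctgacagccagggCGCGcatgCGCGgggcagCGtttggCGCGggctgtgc
Hdac9, outermost start, chr12:34917046-34917345, minus strand: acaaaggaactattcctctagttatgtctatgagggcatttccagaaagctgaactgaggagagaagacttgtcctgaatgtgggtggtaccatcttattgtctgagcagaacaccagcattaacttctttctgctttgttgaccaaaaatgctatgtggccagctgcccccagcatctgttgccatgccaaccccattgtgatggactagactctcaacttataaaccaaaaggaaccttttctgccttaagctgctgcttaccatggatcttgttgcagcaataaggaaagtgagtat
Hdac9, inner start, chr12:34528840-34529139, minus strand: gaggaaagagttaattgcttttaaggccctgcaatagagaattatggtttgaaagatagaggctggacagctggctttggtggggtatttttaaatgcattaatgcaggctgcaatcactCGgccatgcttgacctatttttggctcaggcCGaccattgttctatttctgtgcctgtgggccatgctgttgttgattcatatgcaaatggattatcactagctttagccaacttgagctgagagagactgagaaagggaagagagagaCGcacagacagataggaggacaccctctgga
Ehmt1, chr2:24919560-24919859, minus strand: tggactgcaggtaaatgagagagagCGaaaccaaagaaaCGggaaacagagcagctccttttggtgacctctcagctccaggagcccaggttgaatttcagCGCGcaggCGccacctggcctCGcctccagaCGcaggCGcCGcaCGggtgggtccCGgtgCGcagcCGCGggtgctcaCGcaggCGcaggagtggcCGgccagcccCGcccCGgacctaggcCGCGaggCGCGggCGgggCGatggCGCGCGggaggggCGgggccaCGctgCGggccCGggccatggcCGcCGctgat
Tet2, chr3:133544341-133544640, minus strand: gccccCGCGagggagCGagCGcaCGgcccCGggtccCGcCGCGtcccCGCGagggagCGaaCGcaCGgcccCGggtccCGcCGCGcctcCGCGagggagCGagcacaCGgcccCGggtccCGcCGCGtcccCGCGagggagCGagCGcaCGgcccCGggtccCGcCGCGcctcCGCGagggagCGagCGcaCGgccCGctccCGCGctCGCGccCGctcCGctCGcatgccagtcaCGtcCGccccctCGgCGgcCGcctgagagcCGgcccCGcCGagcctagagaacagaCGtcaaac

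The outermost Kdm4c window held 0 CpG and no peak in any library, while the inner window, 9382 bp into the gene, held 28 CpG and a peak of 2.26, 4.93 and 4.15 FPM in control progenitors, control day 1 and Seh1cKO cells. The outermost Dnmt1 window held 2 CpG and no peak, and the inner window, 7265 bp into the gene, held 33 CpG and lay under a peak of 2.18, 3.29 and 4.52 FPM. Dnmt1 has another inner start, 6909 bp into the gene, which held 12 CpG and lay under the same peak in all 3 libraries. In control day 1 the summit of that peak was at 9 bp from this start. It was at -347 bp from the CpG-rich start, outside the printed window. The CpG-rich inner start thus lay under a peak in both genes in every library, but at Dnmt1 the peak does not tell the inner starts apart. Hdac7 had the same arrangement as Kdm4c, with 6 CpG and no peak at the outermost start and 31 CpG and a peak in all 3 libraries at an inner one. Hdac9 did not follow CpG content: its outermost window held 0 CpG, and the inner one, 388206 bp into this long gene, held only 3 and still had a peak of 2.56, 2.03 and 1.75 FPM. The Ehmt1 window held 34 CpG and the Tet2 window 57, the highest number among the members' starts.

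A start window of the RefSeq table was matched for 39 of the 49 members, against 17492 of the 21887 genes. The members' outermost windows had a median of 26.0 CpG and 63.7% G and C, where all genes had 13.0 CpG and 56.3%. A peak overlapped the window in all 3 libraries for 66.7% of these members and 49.5% of all genes. Over all 56 annotated member starts, the 35 with a peak in every library had a median of 29.0 CpG and the 10 with none had 6.0, against 23.0 and 3.0 over all starts. CpG-rich member starts without any peak were 1 of Hdac7 with 35 CpG, 1 of Ehmt2 with 40 and 1 of Dnmt3a with 47.

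**Figure D1:**
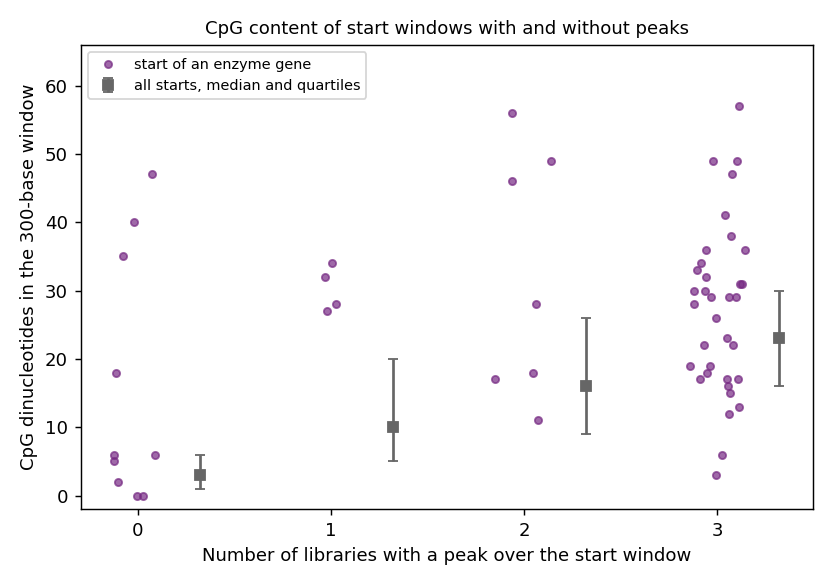
Number of CpG dinucleotides in the 300-base window of each annotated start (vertical axis) against the number of libraries with a peak over that window (horizontal axis). Points are the 56 starts of the enzyme genes, spread sideways for visibility, and squares with bars are the median and quartiles of all starts. The 35 member starts with a peak in 3 libraries have a median of 29.0 CpG, and the lowest of them, the inner Hdac9 start, has 3.

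Short motifs in the outermost windows were searched on both strands and are descriptions of letters, not of binding. The GC box GGGCGG, which contains a CpG, was in 64.1% of member windows and 46.3% of all windows of the same length. The NRF1 core GCGCANGCG was in 15.4% against 8.87%, namely in Kat2a, Ezh1, Ezh2, Ehmt1, Ehmt2 and Kdm1a. CCAAT was in 46.2% against 39.2%. TATAAA was in 5.13% against 13.3%, in Hdac8 and Hdac9 alone among the members. AGGTCA, the hexamer that the thyroid hormone receptor and other nuclear receptors can bind, was in 10.3% against 14.5%, in Ehmt1, Kdm1a, Kdm4c and Tet1. The E-boxes CAGCTG and CACGTG were in 12.8% against 15.1% and in 10.3% against 7.91%. CCGGAAGT, an ETS motif, was in Kat5 alone (5.28% of all windows), AAGATGGCG, a YY1 motif, in Dot1l alone (1.92%), and TGACGTCA, the cyclic AMP response element, in 0 members (2.33%).

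A gene-end peak, meaning a peak within 1000 bp of either annotated end of the gene, was present for 43 members at the control progenitor stage, 43 at control day 1 and 42 with Seh1cKO. The same held for 62.4%, 63.2% and 56.2% of all genes. In all 3 libraries 41 of the 49 members had such a peak, against 54.1% of all genes. Leaving out the shallower Seh1cKO library left the count at 41 in both control libraries. The strongest gene-end peak of the members had a median of 2.35, 3.01 and 3.32 FPM, where all genes with such a peak had 1.88, 2.52 and 2.86. The members' share and median were thus above those of all genes in each library, a difference for which no test was made.

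**Figure D2:**
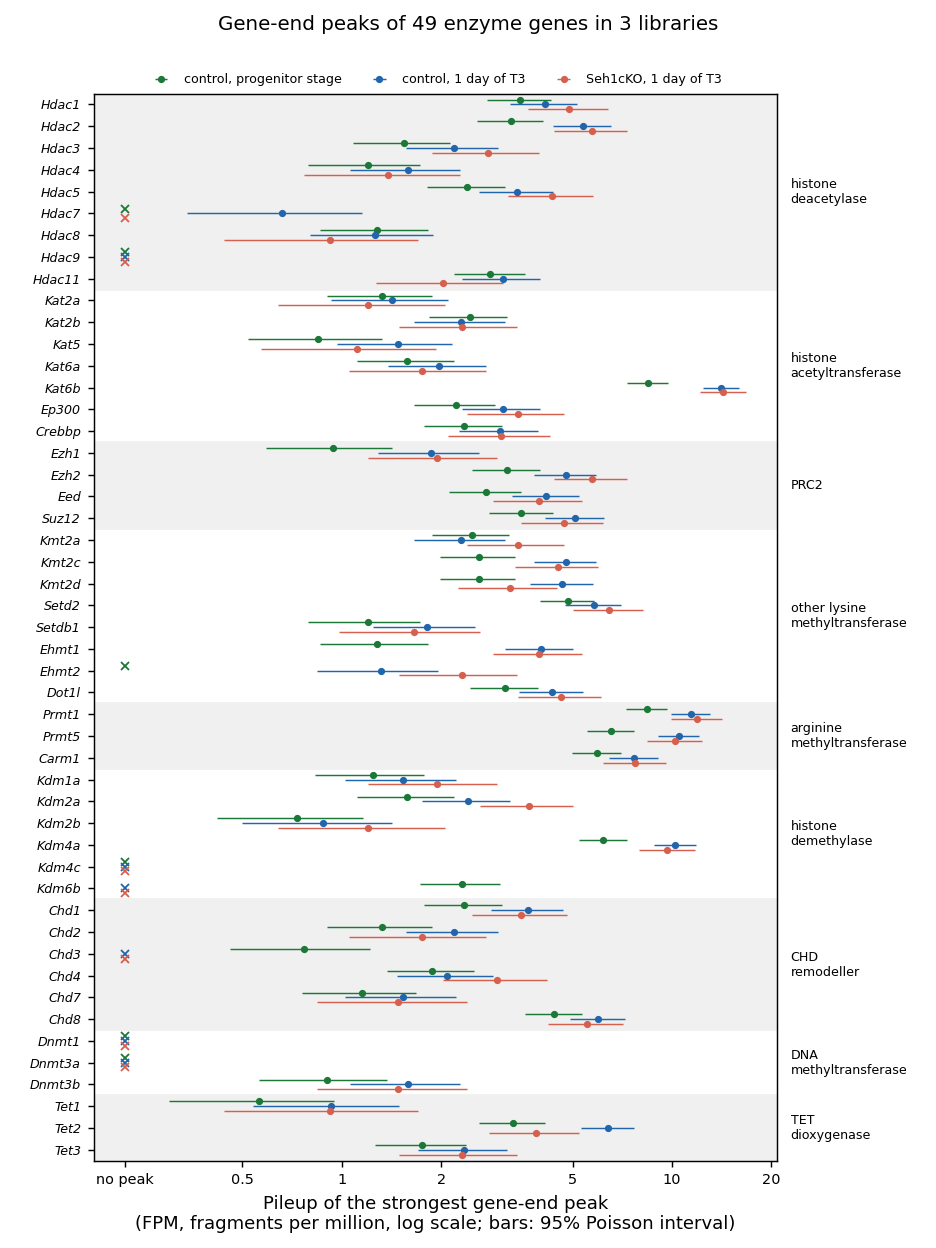
Pileup of the strongest gene-end peak in FPM (horizontal axis, log scale) of each of the 49 enzyme genes, grouped by class, in the 3 libraries. Points carry 95% Poisson intervals for counting error and crosses mark libraries with no gene-end peak. Kat6b, Prmt1, Prmt5 and Kdm4a lie highest in every library, and Dnmt1, Dnmt3a, Hdac9 and Kdm4c have no gene-end peak.

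Among the 9 deacetylase genes, 7 had a gene-end peak in all 3 libraries. Hdac2, a class I enzyme of the Sin3, NuRD and CoREST corepressor complexes, was the highest over the 3 libraries, with 3.25, 5.37 and 5.72 FPM in control progenitors, control day 1 and Seh1cKO cells. Hdac1, its close relative, had 3.46, 4.11 and 4.89. Hdac3, a class I enzyme of corepressor complexes that unliganded thyroid hormone receptor recruits, had 1.54, 2.19 and 2.77, at a peak also near an end of Rell2. In all 3 of these class I genes the progenitor value was the lowest, but not in the fourth class I gene, Hdac8. Progenitors were also lower than control day 1 for 10900 of 12633 genes overall. The class IIa gene Hdac5 had 2.39, 3.40 and 4.33. Hdac4, of the same class, had 1.20, 1.59 and 1.38 at its outer end and a much stronger peak of 7.90, 11.01 and 10.51 at a RefSeq start 15361 bp further in (chr1:92180225-92181095 in control day 1). Hdac7 had a gene-end peak only in control day 1, at 0.66, which is 12 fragments, and Hdac9 had none. Both nevertheless had peaks at inner starts, and for Hdac7 those over the start window had 1.32, 1.15 and 1.20 FPM. Hdac8, which is X-linked, had 1.28, 1.26 and 0.92, the lowest in Seh1cKO cells, and Hdac11, the single class IV gene and one described in oligodendrocytes, had 2.82, 3.07 and 2.03.

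All 7 acetyltransferase genes had a gene-end peak in every library. Kat6b, which encodes a histone H3 acetyltransferase of the MYST family, was the highest of all members in each library, with 8.46, 14.07 and 14.29 FPM (chr14:21499216-21672478). That peak overlapped the annotated Kat6b start windows in control day 1 only, where its summit lay 824 bp past the outermost start. The Kat6b relative Kat6a had 1.58, 1.97 and 1.75. The general coactivators Ep300 and Crebbp, which acetylate histones at enhancers, had 2.22, 3.07 and 3.41 and 2.35, 3.01 and 3.04. Of these paralogs, Kat6b stood well above Kat6a, while Ep300 and Crebbp were close to each other. Kat2b had 2.44, 2.30 and 2.31, and Kat2a, which like Kat2b is a catalytic subunit of SAGA-type complexes, had 1.32, 1.42 and 1.20. Kat5, the enzyme of the TIP60 complex, was the lowest of the class on average over the 3 libraries, with 0.85, 1.48 and 1.11. That peak lay near its far end and also near an end of Rnaseh2c. Both annotated Kat5 starts lay under another peak of 1.84, 2.52 and 2.95, above the gene-end values of Kat2a and Kat6a.

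The 4 PRC2 genes, whose products place the silencing mark on histone H3 lysine 27, all had gene-end peaks in every library. The catalytic subunit Ezh2 had 3.16, 4.76 and 5.72 FPM and Ezh1, the alternative catalytic subunit, had 0.94, 1.86 and 1.94. The structural subunits were close to Ezh2, with Suz12 at 3.50, 5.09 and 4.70 and Eed at 2.73, 4.16 and 3.96. Ezh1 was thus the lowest of the complex in each library.

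Of the 8 other lysine methyltransferase genes, 7 had a gene-end peak in every library and Ehmt2 lacked it in control progenitors. Setd2, which trimethylates lysine 36 along transcribed genes, was the highest, with 4.83, 5.80 and 6.45 FPM. The lysine 4 methyltransferase genes Kmt2a, Kmt2c and Kmt2d had 2.48, 2.30 and 3.41, then 2.61, 4.76 and 4.52, and then 2.61, 4.65 and 3.23, the last at the far end of Kmt2d beside Prkag1. Dot1l, the lysine 79 methyltransferase, had 3.12, 4.33 and 4.61. The lysine 9 methyltransferase genes had the lowest progenitor values of the class: Setdb1, the lowest of the 7 with a peak in every library, had 1.20, 1.81 and 1.66, and Ehmt1 had 1.28, 4.00 and 3.96. Ehmt2, for the partner that forms a complex with the Ehmt1 enzyme, had no peak in progenitors and 1.31 and 2.31 in the day 1 libraries.

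The 3 arginine methyltransferase genes formed the class with the highest median, 6.54, 10.51 and 10.23 FPM. Prmt1, which makes most asymmetric dimethylarginine, had 8.42, 11.39 and 11.89. Prmt5, which makes symmetric dimethylarginine, had 6.54, 10.51 and 10.23. Carm1, a coactivator that methylates histone H3 arginines, was the lowest of the class with 5.94, 7.67 and 7.75, at a peak also near an end of AB124611.

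Among the 6 demethylase genes, 4 had a gene-end peak in every library. Kdm4a, for a demethylase of lysines 9 and 36, was the highest with 6.20, 10.24 and 9.68 FPM. Kdm1a, the flavin-dependent lysine 4 demethylase LSD1, had 1.24, 1.53 and 1.94. Kdm2a, for a lysine 36 demethylase that binds unmethylated CpG, had 1.58, 2.41 and 3.69, at a peak also near an end of 9430078G10Rik. Kdm2b, for another such enzyme, was the lowest of the class with 0.73, 0.88 and 1.20. The Kdm2b peaks of the control libraries did not overlap each other. At an inner start Kdm2b reached 2.22, 3.56 and 4.15. Kdm6b, a lysine 27 demethylase, had its gene-end peak in the progenitor library only, at 2.31. This was a matter of the window's edge: the overlapping peaks of both day 1 libraries, at 6.24 and 6.27, ended short of it (chr11:69418763-69419184 in control day 1). Kdm4c lacked a gene-end peak throughout and was open at its inner start.

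Of the 6 CHD remodeller genes, 5 had a gene-end peak in every library. Chd8 was the highest with 4.40, 5.97 and 5.53 FPM, and Chd7, which is known to act with Chd8 in the oligodendrocyte lineage, was the lowest of the 5 with 1.15, 1.53 and 1.48. Chd1 had 2.35, 3.67 and 3.50, and Chd2 had 1.32, 2.19 and 1.75. The NuRD ATPase gene Chd4 had 1.88, 2.08 and 2.95, but these are not 1 site: the control values are from its start and the Seh1cKO value from its far end, beside Nop2 (chr6:125131577-125132163). At the Chd4 start the values were 1.88, 2.08 and 2.40, and at the far end 1.84, 1.86 and 2.95. Chd3, for the alternative NuRD ATPase, showed a gene-end peak only among the progenitor peaks, at 0.77. Inside the gene it had a stronger peak in all 3 libraries, at 2.95, 5.04 and 5.81 (chr11:69364663-69365430 in control day 1).

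The DNA methyltransferase genes were the class least often open at a gene end, with 1 of 3 in every library. Dnmt3b, a de novo methyltransferase, had 0.90, 1.59 and 1.48 FPM. Dnmt3a, the other de novo enzyme, had no gene-end peak but peaks within 1000 bp of an annotated start 5421 bp into the gene, at 1.11, 1.64 and 1.94. With Dnmt1 open at its inner start, every DNA methyltransferase gene had a peak within 1000 bp of an annotated start in each library, although at Dnmt3a the control day 1 peaks overlapped none of the start windows. The 3 TET genes all had gene-end peaks: Tet2 had 3.29, 6.41 and 3.87, Tet3 had 1.75, 2.35 and 2.31, and Tet1, the lowest on average of the 41 members with a peak in every library, had 0.56, 0.93 and 0.92, from control peaks that did not overlap each other. Tet3 was higher at an inner start, with 2.73, 3.83 and 3.32. When peaks within 1000 bp of any annotated start were counted too, a choice made after seeing the data, 46 members had a peak in all 3 libraries, against 58.0% of all genes. The exceptions were Ehmt2, Kdm6b and Chd3. For Kdm6b and Chd3 no annotated start was matched, so this count could not add them.

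Control cells at day 1 of T3 were compared with control progenitors to ask which of these genes change in accessibility as differentiation starts. The pileup in FPM was higher at day 1 for 38 of the 41 members with a gene-end peak in both libraries and for 10900 of all 12633 such genes. The median ratio was 1.42 for the members and 1.39 for all genes. Relative to that shift of 0.47 on the log2 scale, the members' median differed by 0.03. At least 1.5-fold above the shift lay 1 member, where 6.91% of all genes did, and 1.5-fold below it lay 0, where 9.29% did. That member was Ehmt1 (chr2:24790769-24919643), with 30 fragments or 1.28 FPM in progenitors and 73 fragments or 4.00 in control day 1. Its ratio was 3.12 (interval 2.01 to 4.94), which is 2.25 times the all-gene shift. The progenitor peak used overlapped the control day 1 peak but ended short of the Ehmt1 start window. That window lay under another progenitor peak, of 28 fragments or 1.20 FPM. Seh1cKO cells, at 3.96, had nearly the control day 1 level. Measured by fold enrichment over local background, where the all-gene median ratio was 1.10, Ehmt1 was 1.41 times the shift and no longer past 1.5. By that measure 1 other member passed, Kat2b, and in the other direction, at 0.66 times the shift, where 4.38% of all genes were lower and 5.82% higher. Without the shift taken off, 18 members and 38.7% of all genes lay at least 1.5-fold higher, and 0 members and 1.59% lower. Kdm6b is not in these counts, because its control day 1 peak ended short of the window. The ratio of that peak to the overlapping progenitor peak was 2.71 (1.94 to 3.81). Relative to the median of all distal pairs, described below, it was 2.11 by pileup and 1.15 by fold enrichment.

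**Figure D3:**
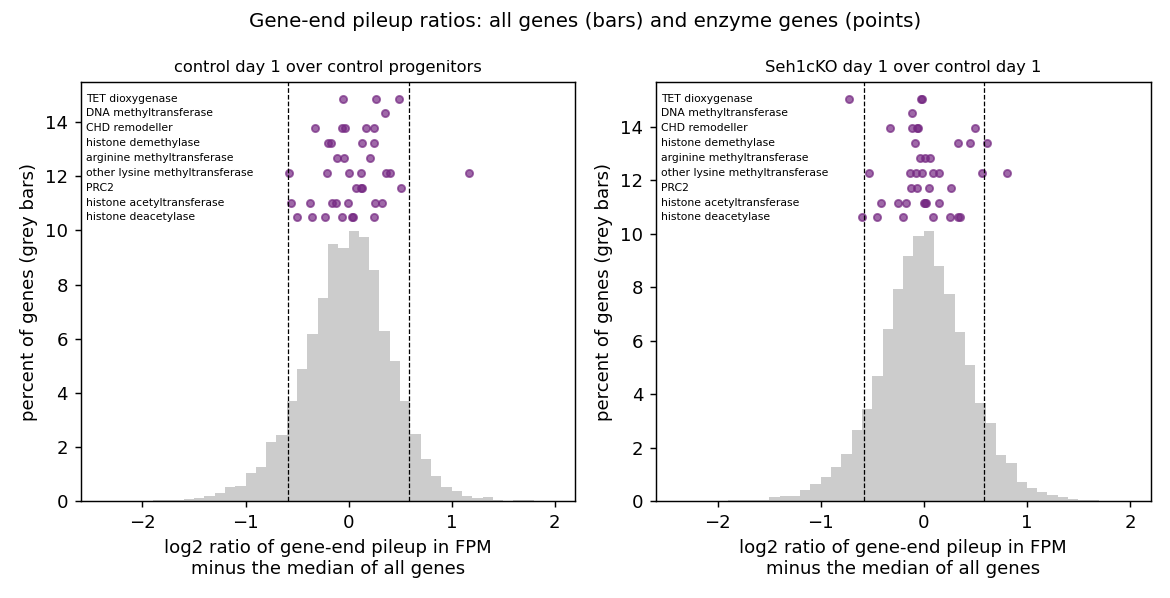
Log2 ratio of gene-end pileup in FPM minus the all-gene median (horizontal axis) for control day 1 over control progenitors on the left and Seh1cKO over control day 1 on the right. Grey bars give the percent of all genes in bins of 0.1, points are the enzyme genes in a line for each class, and dashed lines mark 1.5-fold. Ehmt1 is the single point beyond the right line on the left side, and 4 points lie beyond the lines on the right side.

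Members just inside the threshold were Ezh1, at 0.94 and 1.86 FPM, and Tet2, at 3.29 and 6.41. Their ratios were 1.98 (1.13 to 3.55) and 1.95 (1.45 to 2.63), or 1.43 and 1.40 times the shift. On the low side Kmt2a and Kat2b had the lowest ratios, 0.93 (0.61 to 1.40) and 0.94 (0.62 to 1.43), or 0.67 and 0.68 times the shift. The high members moved with the shift: Kat6b had a ratio of 1.66 (1.38 to 2.01), Prmt1 1.35 (1.11 to 1.65) and Prmt5 1.61 (1.29 to 2.00).

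Seh1cKO cells were compared with control cells at day 1 to ask which of these genes differ in accessibility without Seh1 under the same treatment. The members' median ratio was 0.99 over 42 genes, 20 of them above 1, and the all-gene median was 1.00 over 12052, 6062 of them above 1. At least 1.5-fold higher lay 2 members, where 8.76% of all genes did, and at least 1.5-fold lower lay 2, where 8.74% did. Both counts are a smaller share of the 42 members than these background shares, and no test was made. Tet2 (chr3:133463677-133545136) was lower, with 6.41 FPM in control day 1 and 3.87 in Seh1cKO cells, near its 3.29 in progenitors. Its ratio was 0.60 (0.41 to 0.87), the single one of the 4 whose interval left out 1. Hdac11 had a ratio of 0.66 (0.38 to 1.10), Kdm2a 1.53 (0.97 to 2.40) and Ehmt2 1.75 (0.96 to 3.21), and for Ehmt2 the peaks compared did not overlap each other. By fold enrichment none of the 4 stayed past 1.5-fold, with Tet2 at 0.86, Kdm2a at 1.47, Hdac11 at 0.73 and Ehmt2 at 0.97 relative to all genes. The single member past 1.5-fold by that measure was Chd4, at 1.95, which compares its different ends. Chd4 was at 1.41 by pileup, and at 1.58 when only overlapping peaks were compared. Both comparisons use the control day 1 library, so that a value high there by chance raises 1 ratio and lowers the other.

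The largest numbers of open sites lay in long genes, though the long Kmt2c held only 8, 4 and 2 in the libraries in the order used above. In the gene body and 10000 bp on either side, the members together held 378 peaks in control progenitors, 401 in control day 1 and 179 in Seh1cKO cells. Chd7 had 31, 27 and 11, Hdac9 had 18, 31 and 6, and Hdac4 had 18, 25 and 7. Dnmt3a had 21, 16 and 9, Kat6b had 19, 19 and 5, and Kdm2b had 11, 18 and 5. These 6 genes, ranked by the highest count in any 1 library, were followed by Tet3 with 12, 17 and 10, which is more than Kdm2b over the 3 libraries together. The 6 had fewer peaks in the Seh1cKO list than in either control list, and that list was the shortest overall. Hdac2 and Suz12 were the other extreme, with 1 peak each in every library, the gene-end peak.

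Of the 401 control day 1 locus peaks, 191 were overlapped by at least 1 bp by a progenitor peak, or 47.6% (42.7 to 52.6, Clopper-Pearson), against 45.0% over all genes' loci. By a Seh1cKO peak 154 were overlapped, or 38.4% (33.6 to 43.4), against 35.7%. Peaks near a gene end were overlapped most often, 79.5% and 75.0% of 88, against 76.6% and 70.0% over all genes. Distal peaks, over 1000 bp from every gene end, were overlapped least often, 38.7% and 28.1% of 313, against 36.1% and 26.1%. The share also followed peak strength: among 73 distal member peaks whose −log10 q reached 10, 91.8% were overlapped in progenitors and 78.1% in Seh1cKO cells, against 84.5% and 72.4% over all genes. With the lists limited to the same number of strongest peaks, 76.9% and 75.7% of the members' control day 1 peaks were overlapped, where all genes had 72.6% and 70.2%. From the other side, 86.0% of the members' 179 Seh1cKO peaks overlapped a control day 1 peak, against 84.9% over all genes.

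**Figure D4:**
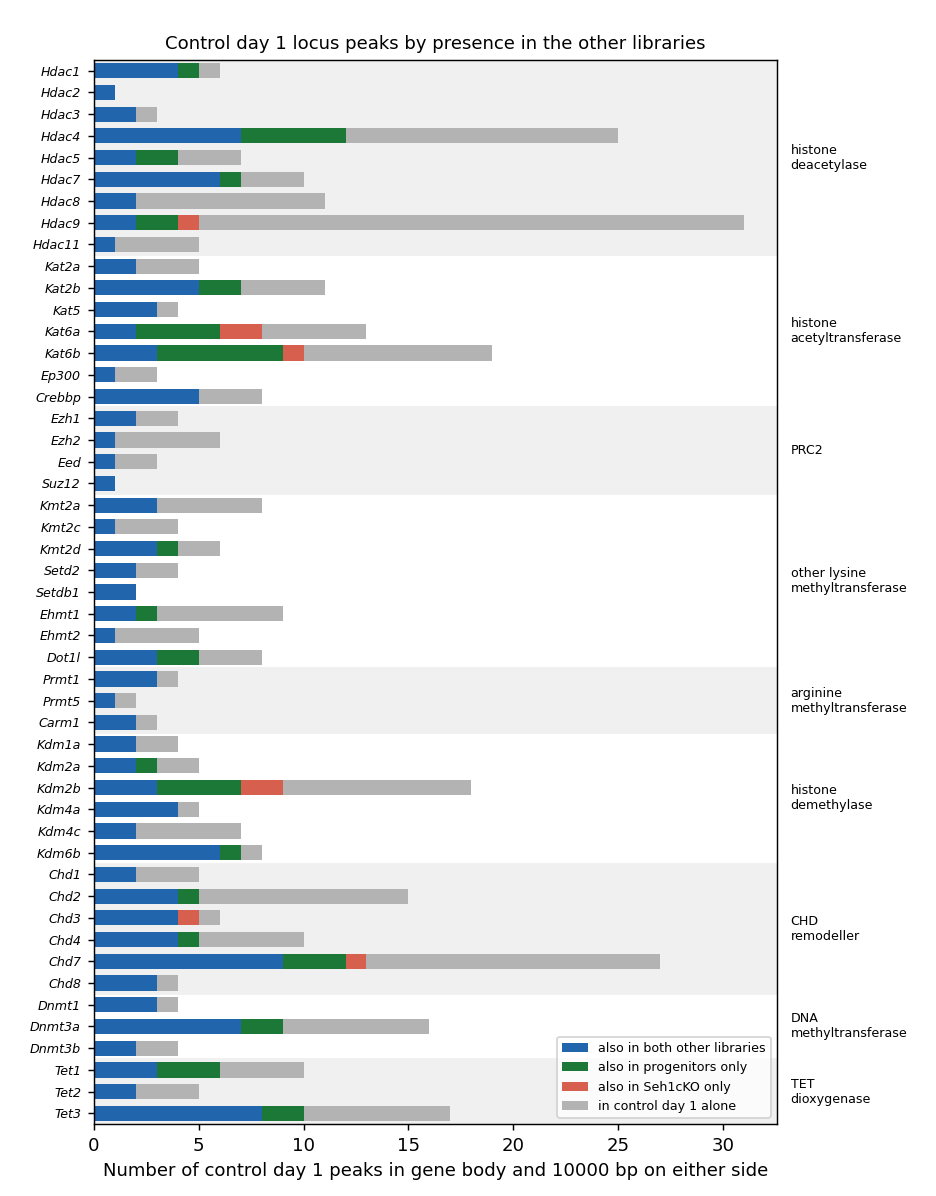
Number of control day 1 peaks (horizontal axis) in the gene body and 10000 bp on either side of each enzyme gene, coloured by whether a peak of both other libraries, of progenitors only, of Seh1cKO cells only or of neither overlaps them. Hdac9 has 26 of 31 peaks in control day 1 alone, while Hdac2, Suz12 and Setdb1, with only 1, 1 and 2 peaks, have all theirs in every library. Over all genes' loci, 45.0% of control day 1 peaks were overlapped by a progenitor peak and 35.7% by a Seh1cKO peak. The all-gene share in control day 1 alone was not counted.

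Distal peaks whose −log10 q reached 20 and that were missing from a library were found at Hdac4 and Kat6b only. The Hdac4 site, at chr1:92030492-92030988 within the gene body, had 0.73 FPM in progenitors and 1.97 in control day 1, and no peak in Seh1cKO cells. The Kat6b site, at chr14:21589524-21589967, had 1.75 FPM in control day 1, overlapped a progenitor peak and had none in Seh1cKO cells. No member had a distal peak of that strength in 1 library alone. The share over all genes was not counted at that cutoff. At a −log10 q of at least 10, 78.1% of the members' distal control day 1 peaks were overlapped in Seh1cKO cells, against 72.4% over all genes.

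Distal sites present in both libraries of a comparison allowed their levels to be compared, by a measure added after seeing the data. Starts inside a gene count as distal here. The median day 1 over progenitor ratio was 1.28 for 121 member pairs and 1.28 for all 22172 pairs, and 21 member pairs lay at least 1.5-fold above and 19 below that median, or 17.4% and 15.7%, against 17.6% and 15.9% of all pairs. For Seh1cKO over control day 1 the median was 0.89 for 88 member pairs and 0.84 for all 16023, with 13 higher and 12 lower, or 14.8% and 13.6%, against 17.7% and 20.6%. The members' shares were close to those of all pairs in the first comparison and lower in the second, with no test made. The sites named next were chosen for their values and their differences are descriptions.

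**Figure D5:**
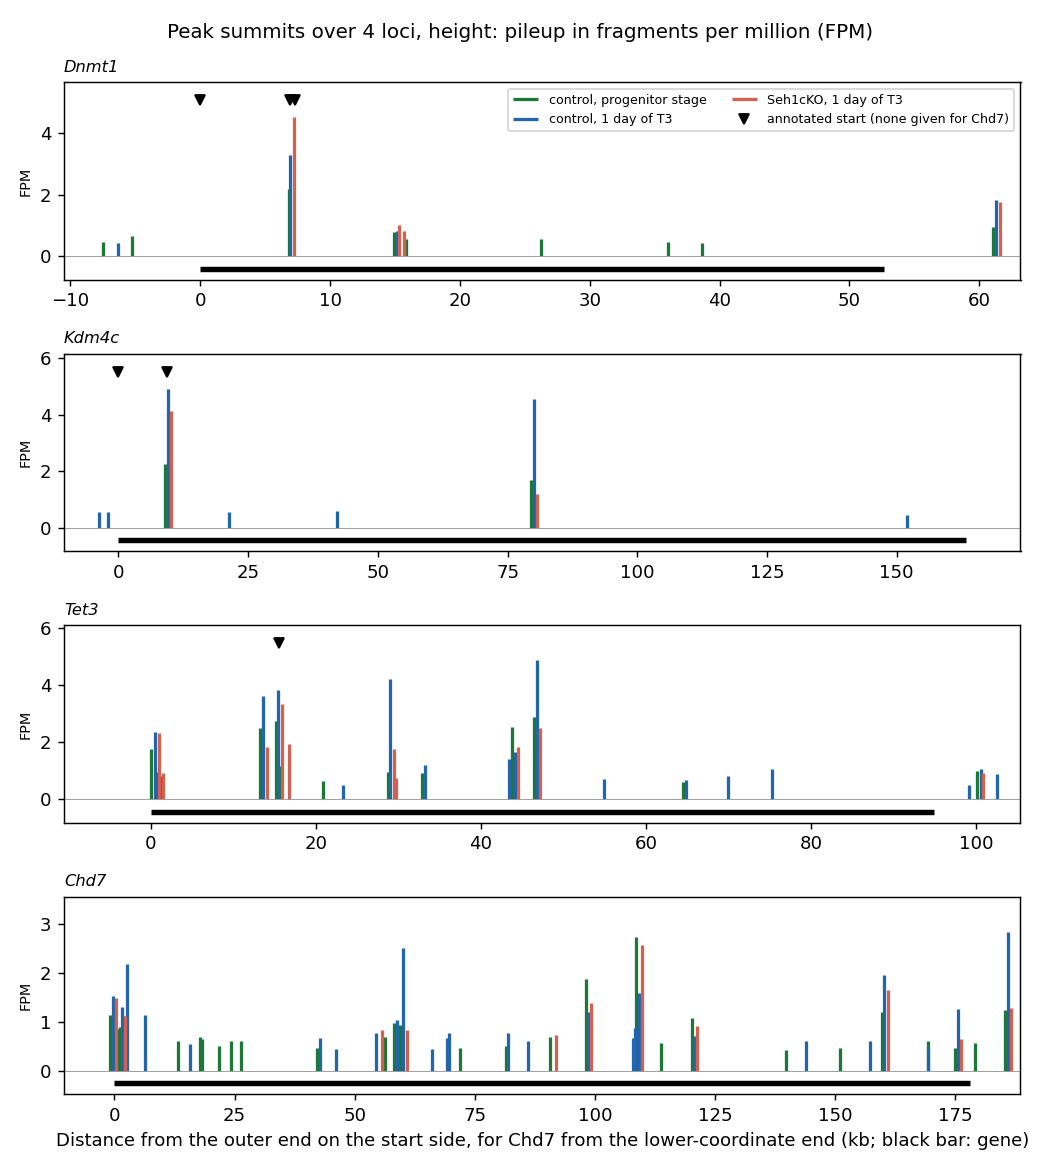
Peak summits along Dnmt1, Kdm4c, Tet3 and Chd7 with 10000 bp on either side; the horizontal axis is the distance in kb from the outer end on the start side (for Chd7 from the lower-coordinate end), the height is pileup in FPM, and the libraries are drawn slightly apart. Triangles mark annotated starts and black bars the gene. The tallest Dnmt1 peaks stand at the inner starts, and the Kdm4c site at 80 kb is high in control day 1 and low in both other libraries.

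An intragenic Kdm4c site at chr4:74322110-74322998, 80140 bp from the outermost start, had 1.67 FPM in progenitors, 4.55 in control day 1 and 1.20 in Seh1cKO cells. The day 1 over progenitor ratio was 2.73 (1.84 to 4.10) and the Seh1cKO over control day 1 ratio 0.26 (0.13 to 0.48), the lowest among the members' distal pairs whose interval left out the median of all pairs. The inner Kdm4c start, at 2.26, 4.93 and 4.15, kept most of its control day 1 level in Seh1cKO cells, so the 2 sites of the gene differed. A Tet3 site inside the gene, at chr6:83427882-83428510, had 0.94, 4.22 and 1.75, with ratios of 4.49 (2.76 to 7.57) and 0.42 (0.24 to 0.69). A neighbouring Tet3 site, at chr6:83410158-83410700, had 4.87 in control day 1 and 2.49 in Seh1cKO cells, a ratio of 0.51 (0.32 to 0.79). A Tet3 site at chr6:83442983-83443728 had 2.48, 3.61 and 1.84, with a Seh1cKO ratio of 0.51 (0.29 to 0.85). That last interval included 0.84, the median of all distal pairs in the Seh1cKO comparison. Not all Tet3 sites were lower in Seh1cKO cells. At chr6:83412833-83413464, near the second of the Tet3 sites above, the values were 2.52, 1.64 and 1.84, with a Seh1cKO ratio whose interval ran from 0.60 to 2.04. The Tet3 gene-end peak was level between genotypes.

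The Chd7 locus held sites of opposite course. At chr4:8750030-8750838, inside the gene, the values were 0.94, 2.52 and 0.83 FPM in progenitors, control day 1 and Seh1cKO cells, with ratios of 2.68 (1.58 to 4.68) and 0.33 (0.14 to 0.68). In the flank, at chr4:8876256-8876963, they were 1.24, 2.85 and 1.29, with ratios of 2.30 (1.43 to 3.75) and 0.45 (0.23 to 0.83). At chr4:8799129-8799850, inside the gene, they ran the other way, 2.73, 1.59 and 2.58, with ratios of 0.58 (0.36 to 0.91) and 1.63 (0.93 to 2.83). At these 3 Chd7 sites the Seh1cKO value was thus nearer the progenitor than the control day 1 value, while the gene-end peak of Chd7 differed little between libraries. A site in the flank of Kat5, at chr19:5595912-5596374, had 1.28, 2.96 and 1.11. An Hdac4 site at chr1:91968817-91969276 had 2.99, 3.45 and 1.48, with a Seh1cKO ratio of 0.43 (0.23 to 0.75). At that Hdac4 site the progenitor and control day 1 values were close, and the Seh1cKO value lay below both. As in the gene-end comparison, the shared control day 1 library enters both ratios of every site.

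Other sites were higher in both day 1 libraries than in progenitors. Inside Kdm6b, at chr11:69417545-69418302, the values were 2.18, 7.06 and 5.16 FPM, with a day 1 over progenitor ratio of 3.24 (2.33 to 4.58). Inside Dnmt3a, at chr12:3833516-3834985, they were 0.73, 2.63 and 2.31, with a ratio of 3.62 (2.04 to 6.71). Lower at day 1 were an Hdac7 site at chr15:97812120-97812481, with 1.54 in progenitors and 0.77 in control day 1 (ratio 0.50, 0.25 to 0.95), and an Hdac4 site at chr1:92035675-92036238, with 3.25 and 2.14 (ratio 0.66, 0.44 to 0.98). Relative to all distal pairs by fold enrichment, the Tet3 site at chr6:83427882-83428510 was 2.09 times the day 1 median and the Dnmt3a site 1.84 times, while the Kdm4c site was 1.20 times and the Kdm6b site 1.32 times. In the Seh1cKO comparison the Kdm4c site was at 0.55. The Chd7 sites were at 0.54, 0.66 and 1.72, in the order given above, and the Tet3 sites at 0.76, 0.80, 0.75 and 1.77.

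The enzymes act with partners, so 94 other chromatin genes, among them further family members and subunits of the same complexes, were read in the same way. A gene-end peak was present for 90 in control progenitors, 90 in control day 1 and 83 in Seh1cKO cells, and 83 had it in all 3. The all-gene share with a peak in all 3 was 54.1%. In the day 1 comparison 7 of 89 lay at least 1.5-fold above the shift and 6 below, against 6.91% and 9.29% of all genes. In the Seh1cKO comparison 5 of 83 were higher and 4 lower, against 8.76% and 8.74%. Of the 7, Sin3a was past 1.5-fold only because a stronger progenitor peak lay beyond 1000 bp, and of the 4 lower ones Kmt5b, at 2.96 and 1.75 in the day 1 libraries, had 3.60 in Seh1cKO cells with a window of 2000 bp. Nsd2, for a lysine 36 methyltransferase, had 1.32 FPM in progenitors, 3.78 in control day 1 and 2.86 in Seh1cKO cells, and Tdg, the glycosylase that removes the products of TET enzymes, had 2.05, 5.42 and 4.52. Mtf2, an accessory subunit that brings PRC2 to CpG-rich DNA, had 1.67, 1.04 and 3.23. Cbx7, Sin3a, Kdm6a, Kdm5b and Dnmt3l were among those with a gene-end peak in both control libraries and none in Seh1cKO cells. With a window of 2000 bp Cbx7, Sin3a and Kdm6a had a peak there, and Kdm5b and Dnmt3l still had none. Kdm5b, for a lysine 4 demethylase, had 0.81 and 1.26 in the control libraries, and Dnmt3l, for a cofactor of the de novo methyltransferases, 0.38 and 0.66. Cbx7, a reader of the PRC2 mark, had 1.45 and 3.50 in the control libraries and 1.01 in Seh1cKO cells with the wider window. Sin3a, the scaffold of the corepressor that holds Hdac1 and Hdac2, had 2.48, 9.15 and no peak with the window of 1000 bp but 7.56, 9.15 and 9.59 with 2000 bp. Kdm6a, the X-linked relative of Kdm6b, had 5.17, 7.56 and no peak with 1000 bp and 4.33 in Seh1cKO cells with 2000 bp. Among the members, Kdm6b alone was added to those with a peak in all 3 libraries by the window of 2000 bp, which made 42.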

How the data were processed

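ATAC-seq peak tables of 3 libraries, 1 per group, were used. Per the submitters' processing notes Bowtie2, SAMtools, MACS2 and mm10 were used. Per the file headers, peaks were called per library with MACS 2.1.2_dev without a control library, keeping all duplicates, at a q cutoff of 0.05. A shift of reads for the transposase is not stated in what was used here. In the deposited tables the authors give pileup as a signal in fragments, fold enrichment as a ratio to local background, and the −log10 of p and q. Both −log10 columns had lost their names and were told apart by recomputing the Poisson p from pileup and fold, which matched to within 0.01 in 99.9% of peaks or more.

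Positions are 1-based. Genes, starts and sequences came from RefSeq tables of GRCm38.p6. The strongest peak by pileup within 1000 bp of either gene end was taken, and ratios were set against the median of all genes. Counts of 1.5-fold or more are descriptions. Pileups have exact Poisson intervals, ratios conditional binomial ones and shares Clopper-Pearson ones, at 95%. Scripts ran in Python 3.11.15 with NumPy 2.4.6 and SciPy 1.17.1 and were tested on simulated data.

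The members and lists were chosen with earlier results of these data known. Members named with values are those without a gene-end peak in a library, the highest and lowest of each class, those at 1.5-fold or more, the 6 with most locus peaks in any 1 library and those with a strong distal peak missing from a library; the other members are given within their class with their pileups only, and distal sites were picked after their values were seen. Alternatives were peaks of −log10 q of at least 5 or 10, equal list lengths, windows of 500 and 2000 bp, the start end only, an overlap of 50%, flanks of 0 and 50000 bp, fold enrichment in place of pileup, overlapping peaks only and no centring. Counting every annotated start, leaving out a library and the distal ratios were added after seeing the data. Exons were not used here, so sites are placed only in a gene body or flank.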

Additional observations from a re-analysis of the deposited data

How the results depend on the processing

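The number of members with a gene-end peak in all 3 libraries stayed between 31 and 46 over its 10 alternatives. These were counts of 49 members, except with the start end only, where it was 31 of 39, against 52.6% of all genes. Both medians of gene-end ratios relative to all genes stayed between -0.05 and 0.03 on the log2 scale. The share of control day 1 locus peaks overlapped in progenitors, 47.6%, became 69.9% and 73.1% with peaks of −log10 q of at least 5 and 10, and 76.9% at equal list length. The share overlapped in Seh1cKO cells, 38.4%, became 52.6%, 60.8% and 75.7% under the same settings, in which fewer and stronger peaks are compared. Overlap of 50% and other flanks left both shares within their intervals. The count of members at 1.5-fold or more became 18 instead of 1 at day 1 over progenitors without centring, because the all-gene ratio of 1.39 is then counted. With fold enrichment it stayed 1 at day 1 but was Kat2b, lower at 0.66, in place of Ehmt1. In the Seh1cKO comparison it became 1 instead of 4 with fold enrichment, and that 1, Chd4 at 1.95, was not among the 4; the cause was not tested. For distal pairs the count at day 1 over progenitors fell from 40 to 14 with stronger peaks only, of which there were 44 pairs, and in the Seh1cKO comparison from 25 to 7 with stronger peaks, of which there were 33 pairs, and to 15 with fold enrichment. No paired analysis was possible because each group has 1 library. The depth of the Seh1cKO library, 59.4% of the control day 1 fragments, limits what its list can show, and depth and genotype cannot be told apart in counts of missing peaks.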
